A study of Caenorhabditis elegans with 27 samples.

Results

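The genes described here are 43 genes of Caenorhabditis elegans whose products build, anchor or activate the contractile apparatus of muscle, and most of them are known from the body wall muscle. They were chosen by symbol. Each gene was represented by the probe set with the highest mean over all arrays among the probe sets annotated to that symbol alone, so 43 of 86 probe sets of these genes were used, from 17118 genes with a symbol of their own on the array. Of the 43 genes, 39 lay over log2 5 in at least 3 of 27 arrays and were tested. The tests ran over all 11102 probe sets that passed the same filter, which stood for 8363 genes.

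In body wall muscle, thick filaments of myosin and paramyosin slide past thin filaments of actin, tropomyosin and troponin when calcium leaves the sarcoplasmic reticulum. Thick filaments are held at M-lines and thin filaments at dense bodies, and both structures connect through integrin and its partner proteins to perlecan in the basement membrane, so that force passes to the cuticle. The pharynx is a separate muscle with its own isoforms of several of these proteins, and 4 of the 43 genes, myo-1, myo-2, tni-4 and tnc-2, are known from it.

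All worms were of strain GE24 with the genotype pha-1(e2123), a temperature-sensitive allele that disturbs development of the pharynx, and treated and untreated groups carried it alike. RNA of whole worms was measured in 3 sets of 9 arrays each, called experiments here, with 3 arrays per group. The sample titles name preparation, day, dose and replicate, but no experiment or batch. In the first experiment, worms were kept with 0, 0.2 or 2.0 mM HuminFeed (HF, a humic substance preparation, dosed by dissolved organic carbon) and harvested after 3 days. In the second, the same doses of HF were given until 11 days. In the third, worms received 0, 0.2 or 2.0 mM HuminFeed-Hydroquinone (HF-HQ) and were harvested after 3 days. The age tag of every array reads fourth-stage larvae, whereas the study's design speaks of adults.

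Values are the deposited log2 expression values, and no difference between the experiments in the height of their distributions was removed. The upper quartile of an array lay at 7.45 to 7.53 for HF at 3 days, at 7.35 to 7.42 for HF at 11 days and at 9.28 to 9.39 for HF-HQ. Levels in the HF-HQ arrays are therefore on a scale of their own and are not set against the HF arrays. Within groups, the lowest correlation between 2 arrays over the tested probe sets was 0.995 to 0.999, except with 0.2 mM HF-HQ, where it was 0.987. The labels do not say whether the 3 cultures per condition were independent, so that the p-values below measure the spread between these arrays only. In RNA of whole worms, fewer muscle cells and less RNA per muscle cell cannot be told apart.

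The defining genes of body wall muscle were detected unequally. The major body wall myosin heavy chain unc-54 and the paramyosin gene unc-15 lay over log2 5 in all 27 arrays. The second body wall myosin heavy chain, myo-3, which forms the centre of the thick filament, lay over log2 5 in the 9 HF-HQ arrays and between 3.01 and 3.64 in the HF arrays. The twitchin gene unc-22, whose product is a giant kinase of the thick filament, and hlh-1, the MyoD homologue that sets muscle fate, were under log2 5 in every array, with highest values of 3.71 and 3.02. The calcium channel gene egl-19 and the M-line gene unc-98 were also not tested, with highest values of 3.81 and 4.02. Just inside the filter lay ttn-1, a titin-like giant protein, with 5.46 to 6.69 in the 9 HF-HQ arrays. Of the 43 genes, 28 were over log2 5 in all 27 arrays, 30 in all 9 arrays of HF at 3 days, 28 in all 9 of HF at 11 days and 39 in all 9 of HF-HQ. The 8 genes myo-1, myo-2, myo-3, tnt-3, unc-89, ttn-1, pat-2 and unc-68 passed the filter only through the HF-HQ arrays, so that their differences in the HF experiments concern values at or under log2 5.

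**Figure D1:**
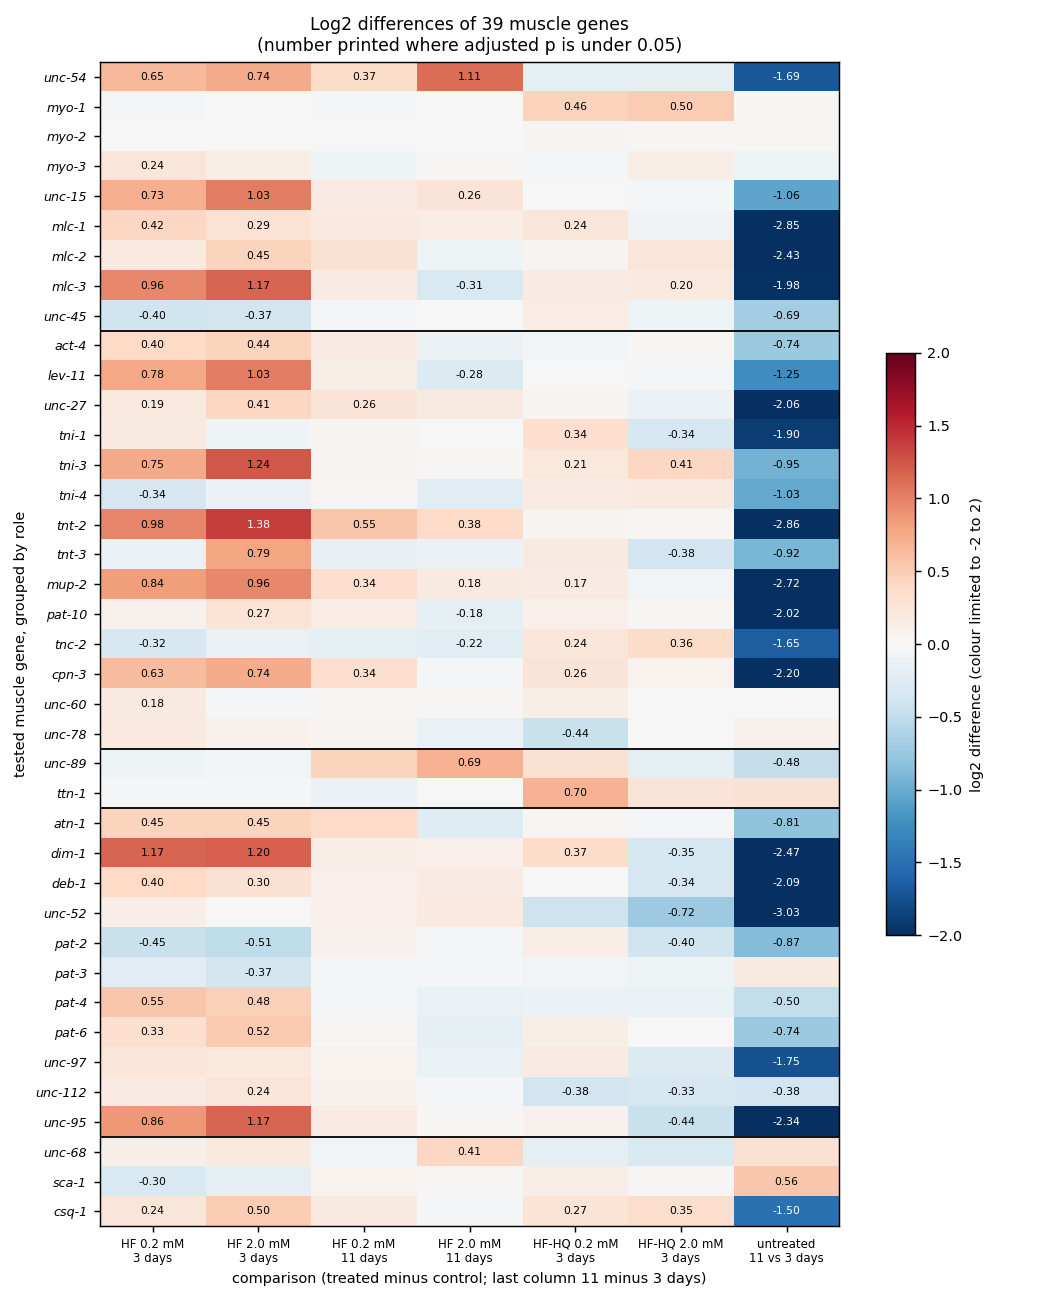
Log2 differences of the 39 tested genes (rows, grouped by role from thick filament at the top to calcium handling at the bottom) in 7 comparisons (columns), with the number printed where the adjusted p of the limma fit was under 0.05. The columns for HF at 3 days hold mostly red fields with values up to 1.38, the columns for HF-HQ hold both signs, and the last column, untreated worms at 11 against 3 days, holds blue fields down to -3.03.

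The first question was how the muscle genes of 3-day-old worms differed with HF. Of 9 thick filament genes, 5 rose at each dose, and of 14 thin filament genes, 8 rose with 0.2 mM and 9 with 2.0 mM. Among the larger rises were those of tnt-2 (troponin T), mlc-3 (myosin light chain), tni-3 (troponin I), lev-11 (tropomyosin) and unc-15 (paramyosin), while unc-45 fell at each dose and tni-4 and tnc-2 fell with 0.2 mM. The dense body genes dim-1, unc-95, pat-4, pat-6, atn-1 and deb-1 rose at each dose. With 0.2 mM, 20 of 39 genes rose and 5 fell, beside 58.9% of all tested probe sets called in either direction, 26% higher and 32.9% lower. With 2.0 mM, 22 rose and 3 fell, beside 60.9% called in either direction, 28% higher and 32.9% lower. The share of muscle genes called was therefore close to that of all probe sets (64.1% at each dose), while 51.3% and 56.4% of the muscle genes were higher. Their median log2 difference was 0.19 with 0.2 mM and 0.29 with 2.0 mM, against -0.03 and -0.02 over all tested probe sets. The doses shared the same 3 control arrays, so their results are not independent.

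Among 9 thick filament genes, 5 rose and 1 fell at each dose. The myosin heavy chain gene unc-54 lay at 6.96, 7.09 and 7.13 in the controls, at 7.66, 7.62 and 7.83 with 0.2 mM and at 7.72, 7.94 and 7.73 with 2.0 mM. Every treated array was above every control array, with log2 differences of 0.65 ± 0.08 (SE of the limma fit, n = 3 per group, adjusted p = 6.59e-07) and 0.74 ± 0.08 (adjusted p = 7.05e-08). Paramyosin, the rod protein of the filament core, is encoded by unc-15, which read 9.90, 9.87 and 9.80 in the controls, 10.55, 10.66 and 10.55 with 0.2 mM and 10.95, 10.72 and 10.99 with 2.0 mM. It rose by 0.73 ± 0.08 and 1.03 ± 0.08, the latter 2.04-fold, and the arrays of the 2 doses did not overlap either.

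The essential myosin light chain gene mlc-3 had the largest rise among the 9 thick filament genes at each dose. Its control arrays lay at 10.09, 10.08 and 10.16, those with 0.2 mM at 11.05, 11.05 and 11.12 and those with 2.0 mM at 11.18, 11.37 and 11.28. The 3 groups did not overlap, and the differences from the controls were 0.96 ± 0.06 (adjusted p = 8.7e-11) and 1.17 ± 0.06 (adjusted p = 1.79e-12). The regulatory light chain genes mlc-1 and mlc-2 are neighbouring genes. For mlc-1 the controls lay at 10.81, 10.80 and 10.82, and it rose by 0.42 ± 0.08 with 0.2 mM and 0.29 ± 0.08 with 2.0 mM without overlap. For mlc-2 the controls lay at 12.79, 12.51 and 12.72 and the arrays with 0.2 mM at 12.76, 12.87 and 12.97. These overlapped, and the difference of 0.19 ± 0.09 did not pass (adjusted p = 0.0796, or 0.0411 without control array 1), whereas with 2.0 mM mlc-2 rose by 0.45 ± 0.09.

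Against this direction, the myosin chaperone gene unc-45, whose product folds the myosin head, fell. It read 7.02, 7.10 and 7.22 in the controls, 6.79, 6.77 and 6.58 with 0.2 mM and 6.80, 6.62 and 6.81 with 2.0 mM. All treated arrays were below all controls, with differences of -0.40 ± 0.07 (adjusted p = 6.17e-05) and -0.37 ± 0.07 (adjusted p = 0.000122). The pharyngeal heavy chain genes myo-1 and myo-2 lay near log2 2 in all HF arrays, so that no change could be detected there. The call of myo-3 with 0.2 mM (0.24 ± 0.10, adjusted p = 0.0468) rested on values under log2 4 and was lost without control array 2 (0.10, adjusted p = 0.404) and without arrays 2 or 3 of the treated group.

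Of 14 thin filament genes, 8 rose and 2 fell with 0.2 mM, and 9 rose with 2.0 mM, with medians of 0.19 and 0.43. Of the 3 troponin T genes, tnt-2 and mup-2 rose at each dose and tnt-3 only reached the threshold with 2.0 mM. The control arrays of tnt-2 lay at 10.33, 10.27 and 10.39, those with 0.2 mM at 11.27, 11.27 and 11.38 and those with 2.0 mM at 11.61, 11.84 and 11.68. The groups were fully separate, with rises of 0.98 ± 0.06 and 1.38 ± 0.06 (2.6-fold, adjusted p = 7.36e-14). mup-2, a troponin T needed for attachment of embryonic body wall muscle, had controls at 10.01, 10.01 and 9.99 and rose by 0.84 ± 0.05 and 0.96 ± 0.05, again without overlap. tnt-3 lay at 3.41, 3.46 and 3.39 in the controls, at 3.26, 3.27 and 3.39 with 0.2 mM and at 3.87, 4.40 and 4.36 with 2.0 mM. Its rise of 0.79 ± 0.11 with 2.0 mM was thus made of values under log2 5, and the lower dose overlapped the controls.

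The 4 troponin I genes, which encode the inhibitory subunit, did not move together. The body wall gene tni-3 read 6.90, 7.06 and 7.04 in the controls, 7.69, 7.76 and 7.79 with 0.2 mM and 8.29, 8.14 and 8.28 with 2.0 mM. The groups did not overlap, and it rose by 0.75 ± 0.07 and 1.24 ± 0.07 (adjusted p = 3.16e-12). unc-27, the main troponin I of body wall muscle, rose less, by 0.19 ± 0.07 with 0.2 mM and 0.41 ± 0.07 with 2.0 mM, and the smaller call was lost without control array 2 (0.17, adjusted p = 0.0715) or treated array 3 (0.13, adjusted p = 0.13).

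tni-1 read 7.71, 7.63 and 7.76 in the controls, 7.89, 7.81 and 7.94 with 0.2 mM and 7.53, 7.72 and 7.58 with 2.0 mM. Its differences of 0.18 ± 0.08 and -0.09 ± 0.08 did not pass, although the lower dose passed without treated array 2 (0.21, adjusted p = 0.0468) and lay above the controls in all 3 arrays. The pharyngeal gene tni-4 read 7.92, 7.95 and 7.88 in the controls and 7.42, 7.70 and 7.60 with 0.2 mM, and it fell by 0.34 ± 0.12 on the log2 scale (adjusted p = 0.0211). That call was lost without control array 2 (-0.32, adjusted p = 0.0589), without treated array 1 (-0.26, adjusted p = 0.107) and after centring each array on its median (-0.26, adjusted p = 0.0725). With 2.0 mM the 3 arrays of tni-4 lay at 7.85, 7.67 and 7.87, below all controls, but the difference of -0.12 ± 0.12 did not pass.

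Tropomyosin, which lies along the thin filament and blocks myosin until calcium arrives, is encoded by lev-11. Its control arrays lay at 9.70, 9.45 and 9.79, those with 0.2 mM at 10.36, 10.41 and 10.51 and those with 2.0 mM at 10.59, 10.68 and 10.74. It rose by 0.78 ± 0.10 and 1.03 ± 0.10, and no arrays overlapped between the 3 groups. The calponin-like gene cpn-3 rose by 0.63 ± 0.06 and 0.74 ± 0.06, and the actin gene act-4 by 0.40 ± 0.09 and 0.44 ± 0.09. Probes for act-4 may share signal with other actin genes, which are close copies of each other. The body wall troponin C gene pat-10, the tested muscle gene with the highest mean that was not called with 0.2 mM, lay at 13.24, 13.27 and 13.30 in the controls and at 13.35, 13.45 and 13.26 with 0.2 mM. These arrays overlapped (0.08 ± 0.06), and with 2.0 mM it rose by 0.27 ± 0.06. The pharyngeal troponin C gene tnc-2 fell with 0.2 mM, from 7.45, 7.46 and 7.43 to 7.03, 7.23 and 7.13 (-0.32 ± 0.08, adjusted p = 0.00148), while with 2.0 mM the difference of -0.14 ± 0.08 did not pass.

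**Figure D2:**
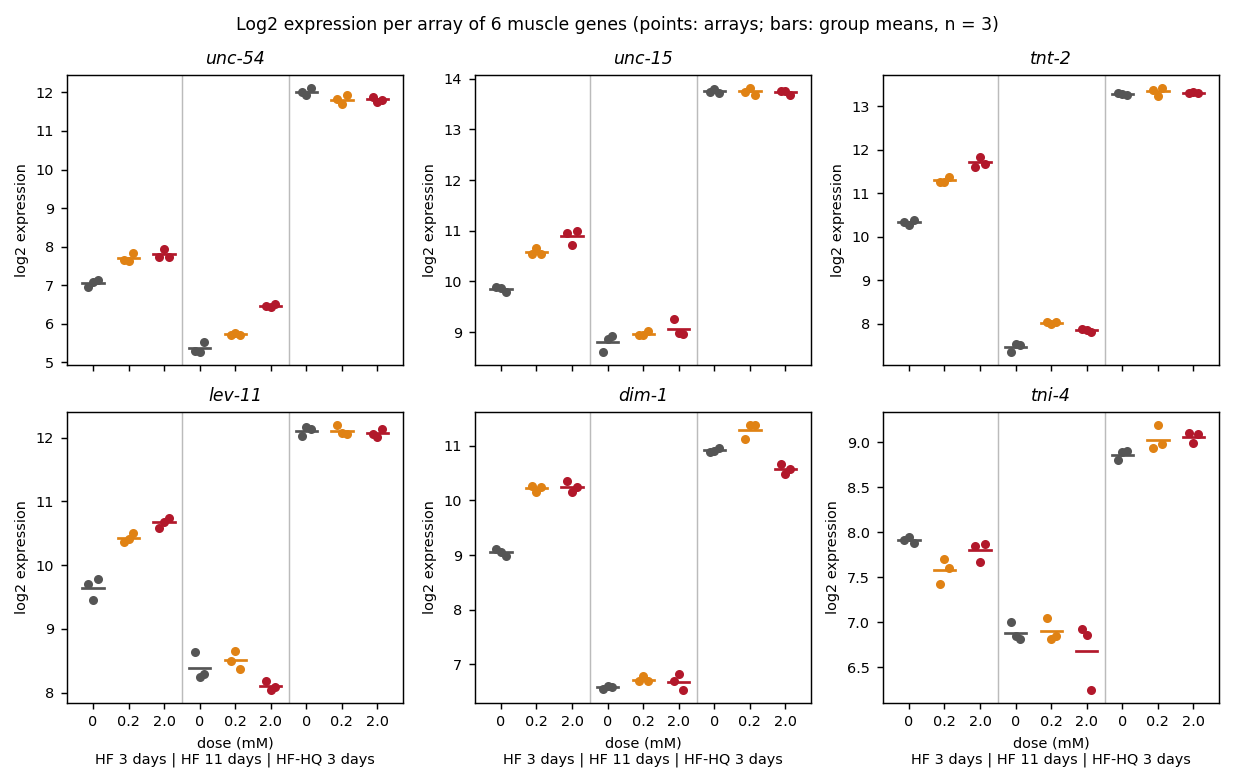
Deposited log2 expression of 6 genes in each of 27 arrays, by dose in mM (horizontal axis) within HF at 3 days, HF at 11 days and HF-HQ at 3 days from left to right in each panel. Points are arrays and bars are means of 3 arrays, and each panel has its own vertical axis. In unc-15, tnt-2 and lev-11 the groups of HF at 3 days step upward with dose, whereas in tni-4 the arrays with 0.2 mM HF at 3 days lie below the controls.

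Of 11 attachment genes, 6 rose and 1 fell with 0.2 mM, and 7 rose and 2 fell with 2.0 mM. dim-1, which encodes a protein with immunoglobulin domains found near dense bodies, lay at 9.11, 9.06 and 8.99 in the controls, at 10.26, 10.16 and 10.25 with 0.2 mM and at 10.35, 10.16 and 10.25 with 2.0 mM. The rises of 1.17 ± 0.08 (adjusted p = 5.23e-11) and 1.2 ± 0.08 were separate from the controls, and the doses overlapped each other. unc-95, a LIM domain protein of dense bodies and M-lines, read 5.01, 4.88 and 5.18 in the controls, 5.83, 5.95 and 5.87 with 0.2 mM and 6.14, 6.29 and 6.16 with 2.0 mM. It rose by 0.86 ± 0.11 and 1.17 ± 0.11, with no overlap between any of the groups.

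Of the integrin genes, pat-2, the alpha subunit, fell by 0.45 ± 0.13 with 0.2 mM and by 0.51 ± 0.13 with 2.0 mM, but on values of 3.74 to 4.42, under the detection threshold. pat-3, the beta subunit, read 9.53, 9.53 and 9.52 in the controls, 9.38, 9.49 and 9.06 with 0.2 mM, which was not called, and 9.37, 9.03 and 9.08 with 2.0 mM (-0.37 ± 0.13, adjusted p = 0.0147). The treated arrays of pat-3 were all lower than the controls, but the call with 2.0 mM was lost without treated array 2 (-0.31, adjusted p = 0.0702) or 3 (-0.33, adjusted p = 0.0562) and after quantile normalization (-0.28, adjusted p = 0.0607). The integrin-linked kinase homologue pat-4 rose by 0.55 ± 0.10 and 0.48 ± 0.10, and pat-6, a parvin homologue that binds it, rose by 0.33 ± 0.07 and 0.52 ± 0.07. Of the structural dense body genes, alpha-actinin (atn-1) rose by 0.45 ± 0.14 at each dose, and vinculin (deb-1) rose by 0.40 ± 0.08 and 0.30 ± 0.08. Perlecan, encoded by unc-52, differed by 0.13 ± 0.16 and -0.01 ± 0.16, neither of which passed. The PINCH homologue unc-97 read 8.98, 9.05 and 8.95 in the controls and 9.33, 9.23 and 9.14 with 0.2 mM, all higher, but its differences of 0.24 ± 0.12 and 0.21 ± 0.12 did not pass (adjusted p = 0.0869 and 0.136, or 0.0198 for 2.0 mM without treated array 2). The kindlin gene unc-112 rose with 2.0 mM (0.24 ± 0.07), and with 0.2 mM its difference of 0.16 ± 0.07 missed the threshold (adjusted p = 0.0528, or 0.0477 without control array 1 and 0.042 with the replicate number as a block).

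Of the calcium genes, calsequestrin (csq-1), which stores calcium in the sarcoplasmic reticulum, rose from 8.80, 8.72 and 8.74 in the controls by 0.24 ± 0.06 with 0.2 mM and by 0.50 ± 0.06 with 2.0 mM. The control and treated arrays of csq-1 did not overlap. The ryanodine receptor gene unc-68 stayed under log2 5 with differences of 0.11 ± 0.15 and 0.20 ± 0.15 that did not pass. Among the 31 tested genes that did not depend on the HF-HQ arrays for detection, 19 rose and 4 fell with 0.2 mM, and 21 rose and 2 fell with 2.0 mM. Of all tested probe sets, 26% and 28% were higher, and 32.9% were lower at each dose. Those shares also cover probe sets that needed the HF-HQ arrays to pass the filter, so they are not matched to the 31 genes. This limit also applies to the counts of these 31 genes in later comparisons.

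Markers of other tissues differed in the same arrays. Of 5 tested hypodermis markers, 3 were higher with 0.2 mM, and 1 was higher and 1 lower with 2.0 mM. Of 7 tested early embryo markers, 1 was higher and 1 lower at each dose, while 8 of 9 on the array were under log2 5 in the controls. Of 7 tested intestine markers, 7 were higher with 0.2 mM and 6 with 2.0 mM, with mean log2 levels of 8.69 to 8.84 in the control arrays, 9.29 to 9.40 with 0.2 mM and 9.30 to 9.37 with 2.0 mM, and none of the 7 was under log2 5 throughout any of these groups. Of 10 oocyte and germ line markers, 10 were lower at each dose, with means of 10.71 to 10.79 in the controls, 10.22 to 10.30 with 0.2 mM and 10.32 to 10.35 with 2.0 mM. All 4 tested sperm markers were higher with 0.2 mM (6.25 to 6.35 in the controls, 7.08 to 7.19 treated) and lower with 2.0 mM (4.64 to 4.99), while spe-9, spe-41 and spe-38 were under log2 5 in all these groups. Of 7 tested neuron markers, 3 were higher with 0.2 mM and 5 with 2.0 mM HF at 3 days, 3 and 4 with HF-HQ, and 2 were lower with 2.0 mM HF at 11 days. With age, 3 neuron markers were higher and 3 lower. Of 4 tested pharynx markers, 2 were lower with 0.2 mM and 1 with 2.0 mM, but all 8 pharynx markers on the array were under log2 5 in these arrays, so that the 4 passed the filter through other groups. The signal of the ubiquitin control near the 5′ end minus that near the 3′ end, a measure of RNA quality, was -2.95 ± 0.03 (SD, n = 3) in the controls, -3.10 ± 0.04 with 0.2 mM and -3.04 ± 0.05 with 2.0 mM. The same measure for the gapdh control was -0.75 ± 0.15, -0.63 ± 0.06 and -0.68 ± 0.06. The part of these differences in the muscle gene results was not tested.

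The second question was the response of 11-day-old worms to HF. With 0.2 mM, unc-54 and 4 thin filament genes rose. With 2.0 mM, the myosin heavy chain gene unc-54 (1.11) and the troponin T gene tnt-2 (0.38) rose without overlap of arrays. The essential light chain gene mlc-3 (-0.31) fell without overlap by its brightest probe set, while its other probe set was not called. The falls of lev-11, pat-10 and tnc-2 were each lost without single arrays. With 0.2 mM, 5 of 39 genes rose and 0 fell (4% of all tested probe sets were called, 3.22% higher and 0.784% lower), where limma gave an unadjusted p under 0.05 for 13. With 2.0 mM, 6 rose and 4 fell, beside 28.3% of all probe sets called, 13.4% higher and 14.8% lower, so that the 25.6% of muscle genes called lay near that background. Median differences were 0.09 and 0.00, against 0.02 and -0.01 over all probe sets. The counts depended on single arrays: 3 genes were called with 0.2 mM without control array 2, and 6 with 2.0 mM without control array 1 or without treated array 1. Both doses shared the 3 controls of 11 days.

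unc-54 lay at 5.29, 5.27 and 5.53 in the 11-day controls, at 5.72, 5.76 and 5.70 with 0.2 mM and at 6.47, 6.44 and 6.51 with 2.0 mM. The 3 groups did not overlap, and the rise was 0.37 ± 0.08 (adjusted p = 0.00784) with 0.2 mM and 1.11 ± 0.08 (2.16-fold, adjusted p = 2.48e-09) with 2.0 mM. The smaller rise was lost without control array 1 (0.33, adjusted p = 0.0532) or 2 (0.32, adjusted p = 0.0589) and when only the compared groups were fitted (adjusted p = 0.0616). unc-15 read 8.61, 8.87 and 8.92 in the controls and 9.25, 8.98 and 8.96 with 2.0 mM, a rise of 0.26 ± 0.08 (adjusted p = 0.0222) that was lost without control array 1 (0.17, adjusted p = 0.153) or treated array 1 (0.17, adjusted p = 0.149).

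The myosin light chain gene mlc-3 fell with 2.0 mM, from 8.18, 8.11 and 8.11 in the controls to 7.76, 7.75 and 7.95 (-0.31 ± 0.06, adjusted p = 0.000853). Its treated arrays were all below the controls, while the arrays with 0.2 mM lay at 8.38, 8.22 and 8.28 (0.16 ± 0.06, not called). The other probe set of mlc-3 was not called with 2.0 mM. For the regulatory light chain gene mlc-2, the arrays with 0.2 mM at 10.58, 10.58 and 10.48 were above the controls at 10.44, 10.12 and 10.16, but the difference of 0.31 ± 0.09 did not pass (adjusted p = 0.0673, or 0.0153 without control array 1).

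tnt-2 lay at 7.35, 7.54 and 7.52 in the controls, at 8.04, 7.99 and 8.05 with 0.2 mM and at 7.88, 7.86 and 7.82 with 2.0 mM. Every treated array was above the controls, and the rises were 0.55 ± 0.06 (adjusted p = 4.59e-06) and 0.38 ± 0.06 (adjusted p = 9.84e-05). mup-2 rose by 0.34 ± 0.05 with 0.2 mM and by 0.18 ± 0.05 with 2.0 mM, the latter not called when only the compared groups were fitted (adjusted p = 0.0671). cpn-3 rose from 8.86, 8.63 and 8.74 to 9.13, 9.09 and 9.04 with 0.2 mM (0.34 ± 0.06) and lay at 8.72, 8.77 and 8.62 with 2.0 mM, within the range of the controls or just below it. unc-27 rose by 0.26 ± 0.07 with 0.2 mM, a call that was lost without control array 2 or 3 or without treated array 2 or 3 (adjusted p of 0.0888 to 0.21).

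With 2.0 mM, 3 thin filament genes fell by small amounts. lev-11 read 8.64, 8.25 and 8.30 in the controls and 8.19, 8.05 and 8.09 treated (-0.28 ± 0.10, adjusted p = 0.0303), and without control array 1 the difference was -0.16 and did not pass (adjusted p = 0.215). Its call was also lost without treated array 2 (adjusted p = 0.0965) or 3 (adjusted p = 0.0811). pat-10 fell by 0.18 ± 0.06 and tnc-2 by 0.22 ± 0.08, and these calls too were lost without single arrays, with adjusted p of 0.0649 to 0.128 for pat-10 and 0.0591 to 0.199 for tnc-2, and with the replicate number as a block for pat-10 (adjusted p = 0.0505). act-4, the tested gene with the highest mean that was not called with 2.0 mM, lay at 11.52, 11.79 and 11.68 in the controls and at 11.74, 11.42 and 11.49 treated, which overlapped. Of the troponin I genes, tni-1, tni-3 and tni-4 differed by 0.02 to -0.21 with 2.0 mM and none of the 3 passed.

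unc-89, an obscurin homologue of the M-line, was called with 2.0 mM (0.69 ± 0.20, adjusted p = 0.0145), but its arrays overlapped and all lay under log2 5. The controls were at 2.40, 3.61 and 3.61 and the treated arrays at 4.23, 3.61 and 3.85, and without control array 1 the difference was 0.29 and not called (adjusted p = 0.0913), nor was it without treated array 1 (0.52, adjusted p = 0.086). The ryanodine receptor gene unc-68 was also called on values under log2 5, from 3.66 in each of the 3 controls to 4.02, 3.77 and 4.42 (0.41 ± 0.15, adjusted p = 0.0413). That call was lost without treated array 3 (0.23, adjusted p = 0.272), without treated array 1 (adjusted p = 0.0647) and without each of the 3 controls (adjusted p of 0.0833 to 0.0876). Of 11 attachment genes, 0 were called at either dose by limma, where 1 had an unadjusted p under 0.05 with 0.2 mM and 2 with 2.0 mM.

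In these arrays, 10 of 10 oocyte and germ line markers were higher with 2.0 mM, with means of 10.57 to 10.58 in the control arrays and 10.94 to 11.01 treated. Of 7 intestine markers, 1 was higher and 3 were lower with 2.0 mM, and elt-2 and elt-7 were under log2 5 in all controls. The ubiquitin control differed little, from -3.21 ± 0.03 to -3.24 ± 0.06 (SD, n = 3), and the gapdh control went from -0.89 ± 0.14 to -0.76 ± 0.12. The part of the marker differences in the muscle gene results was not tested.

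The third question was the response of 3-day-old worms to HF-HQ. Of the 4 pharyngeal genes, myo-1 and tnc-2 rose at each dose, although the smaller rise of tnc-2 was lost without single arrays, and myo-2 and tni-4 were not called. The calcium store gene csq-1 rose at each dose, and with 2.0 mM 6 of 11 attachment genes fell. With 0.2 mM, 10 of 39 genes rose and 2 fell, beside 30.2% of all tested probe sets called, 15.9% higher and 14.3% lower. With 2.0 mM, 5 rose and 8 fell, beside 23.5% called, 13.2% higher and 10.3% lower. The median differences of the muscle genes were 0.11 and -0.03, against 0.05 and -0.02 over all probe sets. With 0.2 mM, 0 of the 39 were called in a limma fit of only the 6 arrays compared, where 10 had an unadjusted p under 0.05. The doses shared 3 controls.

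Among the thick filament genes, myo-1 lay at 7.87, 7.72 and 7.69 in the controls, at 8.07, 8.48 and 8.09 with 0.2 mM and at 8.57, 8.18 and 8.02 with 2.0 mM. All treated arrays were above the controls, with rises of 0.46 ± 0.10 (adjusted p = 0.00162) and 0.50 ± 0.10 (adjusted p = 0.000605) that were not called when only the compared groups were fitted (adjusted p = 0.101 and 0.06). The other pharyngeal heavy chain gene, myo-2, lay between 5.97 and 6.35 in all 9 arrays and was not called. unc-54 lay between 11.93 and 12.12 in the controls, at 11.84, 11.69 and 11.92 with 0.2 mM and at 11.89, 11.76 and 11.81 with 2.0 mM. All treated arrays were below the controls, but the differences of -0.20 ± 0.08 at each dose did not pass (adjusted p = 0.062 and 0.0877), although after quantile normalization both did (-0.25 and -0.24), and the lower dose did without treated array 3 (-0.25, adjusted p = 0.0371). unc-15 lay between 13.67 and 13.82 in all 9 arrays and was not called.

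Troponin genes moved in different directions. tni-1 read 8.10, 8.12 and 8.20 in the controls, 8.38, 8.59 and 8.49 with 0.2 mM and 7.84, 7.91 and 7.65 with 2.0 mM. The 3 groups did not overlap, and tni-1 rose by 0.34 ± 0.08 with the lower dose and fell by 0.34 ± 0.08 with the higher one (adjusted p = 0.00235 and 0.00209). tni-3 rose with 2.0 mM, from 10.54, 10.35 and 10.47 to 10.83, 10.92 and 10.82 (0.41 ± 0.07, adjusted p = 0.00011), whereas its arrays with 0.2 mM, at 10.52, 10.74 and 10.73, overlapped the controls. The call of tni-3 with 0.2 mM (0.21 ± 0.07) was lost on leaving out any 1 of 4 arrays, among them treated array 2 (0.17, adjusted p = 0.128), and with the replicate number as a block (adjusted p = 0.0518). The pharyngeal gene tni-4 read 8.80, 8.89 and 8.90 in the controls, 8.94, 9.19 and 8.98 with 0.2 mM and 9.11, 8.99 and 9.09 with 2.0 mM, all higher than the controls but not called at either dose.

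The troponin T gene tnt-3 fell with 2.0 mM, from 7.01, 7.12 and 7.03 to 6.74, 6.68 and 6.59 (-0.38 ± 0.11, adjusted p = 0.0137), with no overlap. Without control array 2 (adjusted p = 0.0562) or treated array 3 (adjusted p = 0.0649) this was not called. tnt-2 lay between 13.25 and 13.43 in all 9 arrays, near the top of the scale, and was not called at either dose. tnc-2 read 7.57, 7.56 and 7.51 in the controls, 7.63, 8.01 and 7.74 with 0.2 mM and 7.79, 8.01 and 7.93 with 2.0 mM. It rose by 0.24 ± 0.08 and 0.36 ± 0.08, and the smaller rise was lost without treated array 2 (0.14, adjusted p = 0.215), without control array 2 (adjusted p = 0.0506) and without control array 3 (adjusted p = 0.0799). unc-78, whose product disassembles actin together with cofilin, fell by 0.44 ± 0.12 with 0.2 mM, from 10.26, 10.21 and 10.36 to 10.15, 9.36 and 10.00, and array 2 of that group was the lowest by far. Without that array the difference was -0.21 (adjusted p = 0.0383), and when only the compared groups were fitted it was not called (adjusted p = 0.228).

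With 2.0 mM, 6 of 11 attachment genes fell. Of these, unc-52, unc-112 and pat-2 had further tested probe sets that did not all give this call. unc-52 read 8.05, 7.91 and 7.93 in the controls, 7.89, 7.31 and 7.43 with 0.2 mM and 7.30, 7.33 and 7.10 with 2.0 mM. The arrays with 2.0 mM were all below the controls (-0.72 ± 0.16, adjusted p = 0.00216), and the difference with 0.2 mM was -0.42 ± 0.16 (adjusted p = 0.0575, or 0.00842 without treated array 1). dim-1 rose with 0.2 mM, from 10.89, 10.90 and 10.96 to 11.13, 11.37 and 11.37 (0.37 ± 0.08), and fell with 2.0 mM to 10.67, 10.48 and 10.57 (-0.35 ± 0.08, adjusted p = 0.00125). These 3 groups were separate, in opposite directions from the controls.

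unc-95 read 7.85, 7.74 and 7.74 in the controls and 7.58, 7.41 and 7.02 with 2.0 mM (-0.44 ± 0.11, adjusted p = 0.00522), and without treated array 3 the difference was -0.28 (adjusted p = 0.058). deb-1 fell by 0.34 ± 0.08 with 2.0 mM. unc-112 fell at each dose, by 0.38 ± 0.07 and 0.33 ± 0.07, from 10.07, 9.98 and 10.04 to 9.68, 9.45 and 9.81 and to 9.81, 9.62 and 9.68. pat-2 fell by 0.40 ± 0.13 with 2.0 mM, but its arrays overlapped and the call was lost without any of 4 single arrays (adjusted p of 0.0777 to 0.127).

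Of the genes of the calcium store, csq-1 rose from 11.04, 10.97 and 11.03 to 11.37, 11.23 and 11.26 with 0.2 mM (0.27 ± 0.06) and to 11.39, 11.35 and 11.34 with 2.0 mM (0.35 ± 0.06, adjusted p = 0.000143). All treated arrays lay above the controls. The titin-like gene ttn-1 was called with 0.2 mM (0.70 ± 0.20), but its treated arrays at 6.69, 6.66 and 5.46 overlapped the controls at 5.69, 5.47 and 5.53. Without treated array 1 (0.49, adjusted p = 0.0556) or 2 (0.51, adjusted p = 0.0868) it was not called. pat-10, the tested gene with the highest mean that was not called, lay between 13.73 and 13.97 in all 9 arrays.

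With 2.0 mM HF-HQ, 7 of 7 intestine markers were higher (means of 9.31 to 9.43 in the controls and 10.05 to 10.10 treated). Of 4 pharynx markers, 3 were higher and 1 lower (6.97 to 7.17 in the controls, 7.31 to 7.46 treated), and ceh-22, phat-1, phat-2 and phat-4 were under log2 5. With 0.2 mM, 3 of 7 intestine markers and 2 of 4 pharynx markers were higher, the latter being tnt-4 (0.72 ± 0.12) and phat-3 (0.40 ± 0.11). Of 10 oocyte and germ line markers, 6 were lower with 0.2 mM and 4 with 2.0 mM. The ubiquitin control read -2.08 ± 0.05 in the controls, -2.44 ± 0.17 with 0.2 mM and -2.15 ± 0.09 with 2.0 mM (SD, n = 3), and the gapdh control 0.14 ± 0.15, 0.26 ± 0.18 and 0.30 ± 0.04. The part of these in the muscle gene results was not tested.

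**Figure D3:**
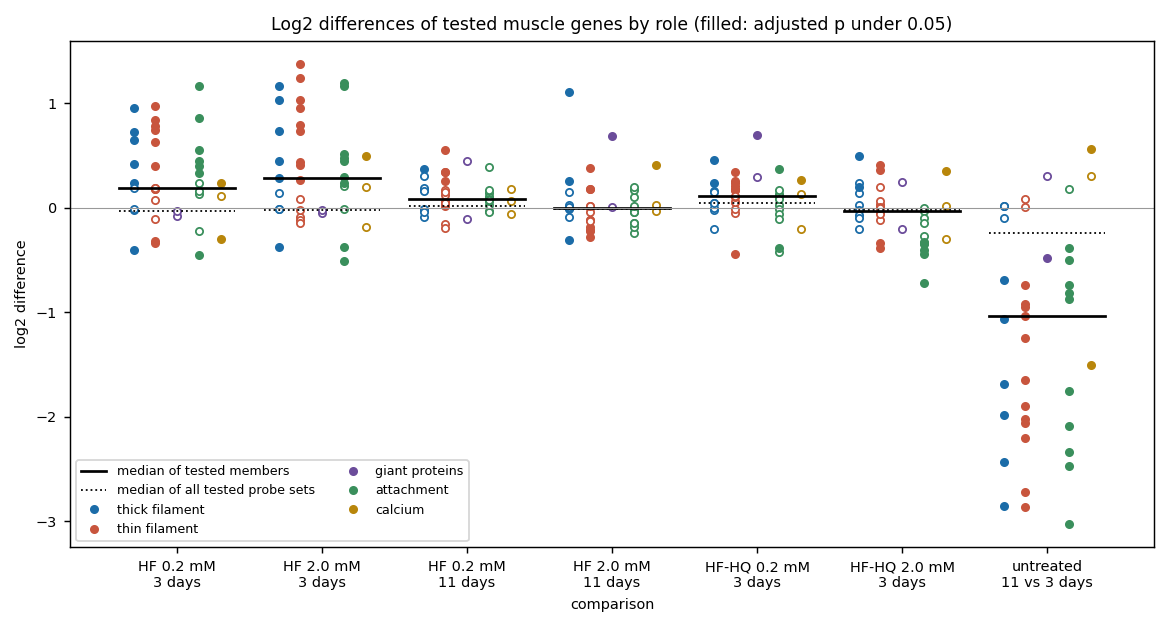
Log2 difference (vertical axis) of each tested muscle gene in 7 comparisons, coloured by role and filled where adjusted p was under 0.05, with the median of the tested muscle genes (solid line) and of all tested probe sets (dotted line). The solid line lies at 0.19 and 0.29 for HF at 3 days, between -0.03 and 0.11 for the later 4 treatments, and at -1.03 for untreated worms at 11 against 3 days, where the dotted line lies at -0.24.

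The fourth comparison set untreated worms at 11 days against untreated worms at 3 days, from the HF experiments. Of 9 thick and 14 thin filament genes, 6 and 12 were lower at 11 days, the largest fall being that of tnt-2 (7.25-fold), and 10 of 11 attachment genes were lower with them. Of 39 genes, 30 were lower and 1 was higher, beside 79.1% of all tested probe sets called, 27.9% higher and 51.2% lower. These counts include tnt-3, pat-2 and unc-89, whose values were at or under log2 5 at both ages. Among the 31 tested genes that did not depend on the HF-HQ arrays for detection, 27 were lower and 1 was higher. The 2 groups come from separate sets of arrays, and the sample titles do not say whether these were handled together, so age and experiment cannot be told apart. The median difference was -1.03 for the muscle genes and -0.24 over all probe sets, and the latter moved to -0.07 after centring the arrays on their medians and to 0.04 after quantile normalization. The medians of the muscle genes were then -0.86 and -0.94, and their calls were 7 higher and 29 lower after centring and 6 higher and 27 lower after quantile normalization.

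In the thick filament, 6 of 9 genes fell. The 3 not called were myo-1, myo-2 and myo-3, with means of 2.34, 2.14 and 3.30 at 3 days and 2.36, 2.16 and 3.20 at 11 days. These were under log2 5 at both ages, so that a fall could not be detected. mlc-1 lay at 10.81, 10.80 and 10.82 at 3 days and at 7.78, 8.11 and 7.98 at 11 days (-2.85 ± 0.08, adjusted p = 3.12e-19), and mlc-2 differed by -2.43 ± 0.09. The essential light chain mlc-3 differed by -1.98 ± 0.06. Of the filament proteins themselves, unc-54 fell by 1.69 ± 0.08 and unc-15 fell by 1.06 ± 0.08 on the log2 scale. None of the arrays of these 5 genes overlapped between the ages.

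In the thin filament, 12 of 14 genes fell. tnt-2 lay at 10.33, 10.27 and 10.39 at 3 days and at 7.35, 7.54 and 7.52 at 11 days, a difference of -2.86 ± 0.06 or 7.25-fold. mup-2 went from 10.01, 10.01 and 9.99 to 7.30, 7.26 and 7.28 (-2.72 ± 0.05, adjusted p = 4.22e-23). The troponin I genes differed by -2.06 ± 0.07 (unc-27), -1.90 ± 0.08 (tni-1), -1.03 ± 0.12 (tni-4) and -0.95 ± 0.07 (tni-3), so that the pharyngeal gene was lower too. Troponin C genes fell by 2.02 ± 0.06 (pat-10) and 1.65 ± 0.08 (tnc-2) on the log2 scale, and lev-11 by 1.25 ± 0.10. The actin gene act-4 fell by 0.74 ± 0.09, a call that was lost after quantile normalization (-0.09, adjusted p = 0.401).

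Exceptions, by the probe sets used here, were genes of actin turnover. The cofilin gene unc-60, whose product severs actin filaments, read 11.59, 11.63 and 11.69 at 3 days and 11.65, 11.73 and 11.58 at 11 days (0.01 ± 0.05), which overlapped. Relative to all probe sets it was higher after centring (0.18) and after quantile normalization (0.58). unc-78 differed by 0.09 ± 0.12 and did not pass.

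Of 11 attachment genes, 10 fell, among them pat-2 on values at or under log2 5. unc-52 read 6.95, 6.95 and 6.96 at 3 days and 3.66, 3.63 and 4.48 at 11 days (-3.03 ± 0.16, 8.18-fold, adjusted p = 9.77e-14), with 11-day values under log2 5. dim-1 fell by 2.47 ± 0.08, deb-1 fell by 2.09 ± 0.08, and the PINCH homologue unc-97, a LIM domain protein of the integrin complex, fell by 1.75 ± 0.12. unc-95 went from 5.01, 4.88 and 5.18 to 2.68 in each of the 3 arrays, which is at the low end of the scale, so that the size of its difference (-2.34 ± 0.11) is limited by that end. Of the other genes of the integrin complex, the differences were -0.50 ± 0.10 for pat-4, -0.74 ± 0.07 for pat-6 and -0.38 ± 0.07 for unc-112, the last of which was not called after quantile normalization (-0.14, adjusted p = 0.058). pat-3 was not called (0.18 ± 0.13), or was higher after centring (0.35), after quantile normalization (0.57) and without 11-day array 1 (0.30, adjusted p = 0.0494).

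Calcium genes were split. csq-1 fell by 1.5 ± 0.06, and sca-1, the calcium pump that refills the store, was the gene called higher, from 9.03, 9.01 and 8.79 to 9.39, 9.66 and 9.46 (0.56 ± 0.11, adjusted p = 6.31e-05) by its brightest probe set. unc-89 differed by -0.48 ± 0.20 on values under log2 5 and was not called without 11-day array 1 (-0.07, adjusted p = 0.587), nor without any single 3-day array. Other tissue markers differed as well. All 5 tested hypodermis markers were lower (means of 10.26 to 10.35 at 3 days and 7.10 to 7.28 at 11 days), all 4 sperm markers were lower (6.25 to 6.35 against 2.66 to 2.70, with 7 of 7 under log2 5 at 11 days), and 6 of 7 early embryo markers were higher (3.76 to 3.96 against 5.35 to 5.38), of which pes-10 and pes-1 were under log2 5 at both ages. Of 7 intestine markers, 5 were lower and 2 higher, and the ubiquitin control went from -2.95 ± 0.03 to -3.21 ± 0.03 and the gapdh control from -0.75 ± 0.15 to -0.89 ± 0.14. Their part in the muscle gene result was not tested.

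The doses were also compared directly. At 3 days of HF, 9 of 39 genes were higher with 2.0 than with 0.2 mM and 2 were lower, beside 21% of all probe sets called, 13.4% higher and 7.65% lower. The troponin genes tni-3 (0.49 ± 0.07) and tnt-2 (0.40 ± 0.06) were among the higher ones. tnt-3 had a larger difference (0.90 ± 0.11), but its values of 3.26 to 4.40 were all under log2 5. tni-1 was lower (-0.27 ± 0.08), as was unc-60 (-0.20 ± 0.05). The count fell to 6 without array 1 of 0.2 mM and to 4 without array 3 of 2.0 mM. The tni-1 call was lost without arrays 1 or 3 of either dose (adjusted p of 0.0538 to 0.078), and the unc-60 call without array 3 of 2.0 mM (-0.18, adjusted p = 0.0531).

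At 11 days, 2 genes were higher and 11 lower with 2.0 than with 0.2 mM HF, beside 30.5% of all probe sets called, 12.2% higher and 18.3% lower. unc-54 was higher by 0.74 ± 0.08. atn-1 (-0.62 ± 0.14), mlc-3 (-0.48 ± 0.06) and lev-11 (-0.40 ± 0.10) were lower. unc-68 was higher by 0.47 ± 0.15 on values under log2 5, which was not called without array 3 of 2.0 mM (0.30, adjusted p = 0.146) or without array 1 of 0.2 mM (adjusted p = 0.0573). With HF-HQ, 2 genes were higher and 12 lower at 2.0 than at 0.2 mM, beside 33.2% of all probe sets called, 17.5% higher and 15.7% lower. dim-1 (-0.72 ± 0.08), tni-1 (-0.69 ± 0.08) and tnt-3 (-0.56 ± 0.11) were lower. unc-78 was higher by 0.45 ± 0.12, or by 0.21 without array 2 of 0.2 mM (adjusted p = 0.0256), and tni-3 by 0.19 ± 0.07, the latter not called without any of 4 single arrays (adjusted p of 0.0527 to 0.186).

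The responses themselves were compared between ages and between preparations with interaction contrasts of the limma fit. The change with 2.0 mM HF at 11 days was lower than at 3 days for 19 of 39 genes and higher for 4, beside 62% of all probe sets called, 32.7% higher and 29.3% lower. mlc-3, which rose by 1.17 at 3 days and fell by 0.31 at 11 days, had a difference between the changes of -1.48 ± 0.09 (adjusted p = 4.1e-11). The fall of mlc-3 at 11 days rests on its brightest probe set, since the other was not called. lev-11 changed from a rise of 1.03 to a fall of 0.28 (difference -1.31 ± 0.14), and tni-3 from 1.24 to 0.02 (difference -1.21 ± 0.10). unc-54 went the other way, from 0.74 to 1.11 (difference 0.37 ± 0.11, adjusted p = 0.00831). Among the 31 genes that did not depend on the HF-HQ arrays for detection, 18 had a lower and 2 a higher change with 2.0 mM. With 0.2 mM, 12 genes had a lower and 2 a higher change at 11 days, beside 42.7% of all probe sets called, 26.1% higher and 16.6% lower. Age and experiment cannot be told apart in these differences.

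The change with 2.0 mM HF-HQ was lower than that with 2.0 mM HF at the same age for 22 of 39 genes and higher for 3, beside 48.2% of all probe sets called, 27.6% higher and 20.6% lower. unc-95 rose by 1.17 with HF and fell by 0.44 with HF-HQ (difference -1.61 ± 0.16, adjusted p = 3.99e-08). dim-1 rose by 1.2 with HF and fell by 0.35 with HF-HQ (difference -1.55 ± 0.11), and tnt-2 changed by 1.38 and 0.03 (difference -1.35 ± 0.09). tnc-2 had a higher change with HF-HQ (difference 0.51 ± 0.11). The difference of myo-1 (0.51 ± 0.14) only restates its rise with HF-HQ, because its values near log2 2 in the HF arrays could show no change. Of the same 31 genes, 21 had a lower and 2 a higher change with 2.0 mM HF-HQ. With 0.2 mM, 15 genes had a lower and 7 a higher change with HF-HQ, beside 40.2% of all probe sets called, 24.4% higher and 15.8% lower. The preparations were measured in separate experiments, so preparation and experiment cannot be told apart, and several filament genes lay near the top of the scale in the HF-HQ controls, such as unc-15 at 13.71 to 13.80.

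**Figure D4:**
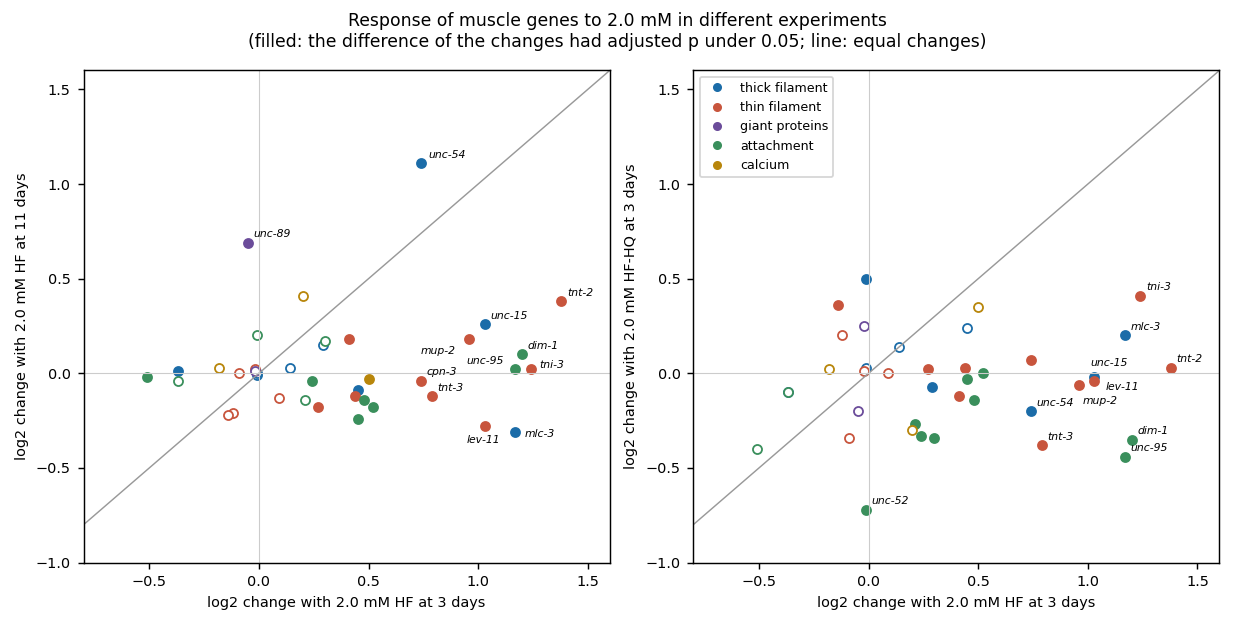
Log2 change of each tested muscle gene with 2.0 mM HF at 3 days (horizontal axes) against its change with 2.0 mM HF at 11 days (left) and with 2.0 mM HF-HQ at 3 days (right), coloured by role. Points are filled where the difference between the changes had an adjusted p under 0.05, and the diagonal marks equal changes. mlc-3, lev-11 and tni-3 lie far below the diagonal on the left and unc-95, dim-1 and tnt-2 on the right, while unc-54 lies above it on the left.

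Several genes had more than 1 probe set, and these did not always give the same result. Of 19 genes with at least 2 tested probe sets, all probe sets gave the same call in 12 genes with 0.2 mM HF at 3 days. This held for 14 genes with 2.0 mM HF at 3 days and for 13 for age. At 11 days of HF it held for 17 genes with 0.2 mM and 12 with 2.0 mM, and with HF-HQ for 11 and 8. For HF at 3 days, some probe sets were called and others not for deb-1, lev-11, mlc-2, pat-2, pat-3 and unc-60 with 0.2 mM. With 2.0 mM this was so for lev-11, sca-1, unc-112, unc-60 and unc-97, and for age for lev-11, pat-3, unc-68 and unc-89. Calls of opposite sign occurred in sca-1 with 0.2 mM HF at 3 days and in sca-1 and unc-60 for age. With 2.0 mM HF-HQ, the called genes myo-1, tni-3, unc-52, unc-112 and pat-2 each had a tested probe set that was not called. With 0.2 mM HF-HQ this was so for myo-1, tni-3 and dim-1. With 2.0 mM HF at 11 days it was so for mlc-3, lev-11, pat-10, unc-89 and unc-68. In lev-11, which makes several tropomyosin isoforms, 4 of the 6 tested probe sets rose at each dose of HF at 3 days, by 0.48 to 0.96 with 0.2 mM and by 0.62 to 1.27 with 2.0 mM. A further probe set was called with 0.2 mM alone (0.80 ± 0.16, against 0.21 ± 0.16 with 2.0 mM), and the dimmest differed by 0.01 ± 0.18 and 0.07 ± 0.18.

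In unc-60, which makes a general and a muscle form of cofilin, 1 of 5 probe sets stood apart. It lay at 8.25, 8.12 and 8.27 in the 3-day controls, at 9.13, 9.11 and 9.26 with 0.2 mM HF and at 9.21, 9.36 and 9.20 with 2.0 mM HF. These rises of 0.95 ± 0.07 and 1.05 ± 0.07 were separate from the controls, and at 11 days the untreated arrays read 7.11, 6.95 and 6.95 (-1.21 ± 0.07). The other 4 probe sets differed by 0.09 to 0.26 with 0.2 mM, by -0.13 to 0.06 with 2.0 mM and by -0.24 to 0.61 for age. The brightest probe set, used elsewhere here, lay at 11.59, 11.63 and 11.69 in the 3-day controls and at 11.66, 11.61 and 11.57 with 2.0 mM, which overlapped. The files do not say which form a probe set measures.

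In sca-1, which makes several forms of the calcium pump, a probe set other than the brightest rose with HF at 3 days, from 8.72, 8.78 and 8.71 to 9.41, 9.36 and 9.30 with 0.2 mM (0.62 ± 0.08) and to 9.28, 9.09 and 9.04 with 2.0 mM (0.40 ± 0.08). It fell with age, to 7.15, 7.24 and 7.23 (-1.53 ± 0.08). The brightest probe set had calls of opposite sign, -0.30 ± 0.11 with 0.2 mM and 0.56 ± 0.11 with age, and the former was lost without control array 1 (-0.25, adjusted p = 0.0825) or 2 (adjusted p = 0.0737) or treated array 3 (-0.21, adjusted p = 0.134).

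**Figure D5:**
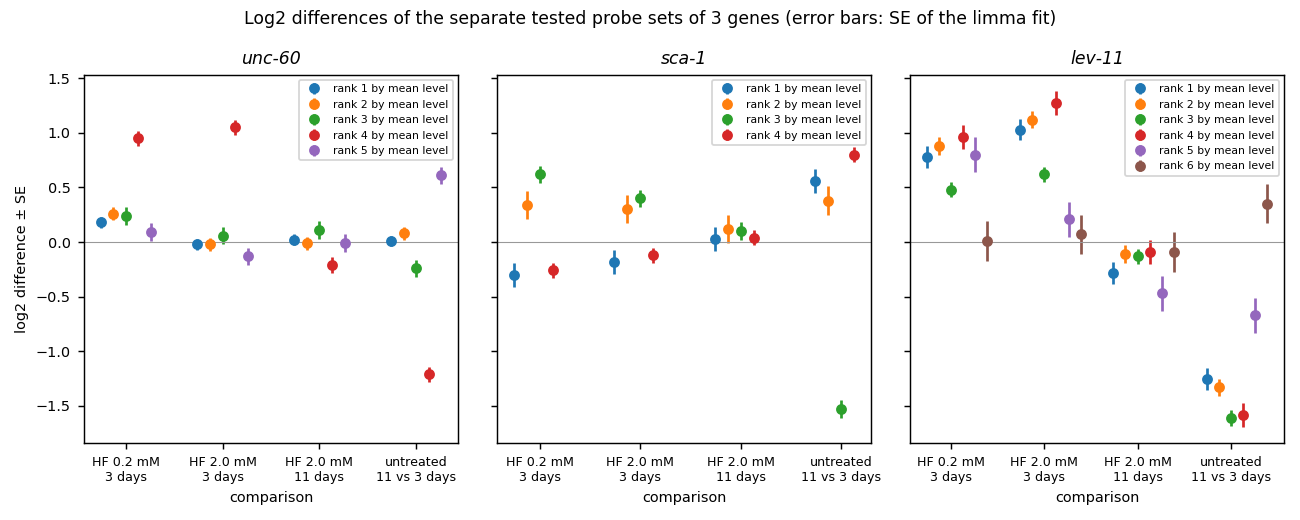
Log2 differences with SE of the limma fit (vertical axis) of every tested probe set of unc-60, sca-1 and lev-11 in 4 comparisons (horizontal axis), coloured by the rank of the probe set's mean level. In unc-60 the probe set of rank 4 lies at 0.95 and 1.05 for HF at 3 days and at -1.21 for age, apart from the others, and in sca-1 that of rank 3 lies at 0.62, 0.40 and -1.53.

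Among 22 further genes of the sarcomere that are not among the 43, 16 were tested. With 0.2 mM HF at 3 days, 6 of the 16 rose and 2 fell, and with 2.0 mM 6 rose and 3 fell, so that the share called at each dose was under the 58.9% and 60.9% of all probe sets. The zyxin gene zyx-1, whose product sits at dense bodies, rose by 0.81 ± 0.09 and 0.70 ± 0.09, and the kettin gene ketn-1 rose with 2.0 mM HF at 11 days by 0.76 ± 0.18. Of the 16, 12 were lower and 3 higher in untreated worms at 11 days, beside 51.2% and 27.9% of all probe sets. With HF-HQ, 1 fell with 0.2 mM (30.2% of all probe sets were called), and 1 rose and 2 fell with 2.0 mM (23.5% called).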

How the data were processed

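RNA of whole worms from 27 arrays was measured on Affymetrix expression arrays. The deposited values are log2 expression per probe set, which the authors made with GCRMA per the submitters' processing notes (its version is not given in the sources used here). GCRMA corrects background, normalizes and summarises probes. The 3 experiments had separate distributions and appear to have been normalized apart, and no normalization was added. No sequence is printed for the genes.

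Of 22625 probe sets, 77 controls were left out, and 11102 of the rest lay over log2 5 in at least 3 arrays and were tested. By annotation, 10533 of them name 1 gene, 378 name several and 191 name none. Group means and a shared variance were estimated from the 27 arrays together by limma 3.58.1 (lmFit and eBayes) in R 4.3.3, a step tested on simulated data. P-values are 2-sided and adjusted over all tested probe sets of a contrast (Benjamini-Hochberg), and a probe set was called under 0.05. The number of arrays limits the precision. Tables and figures were made in Python 3.11.15 with pandas 2.3.3 and matplotlib 3.10.9.

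The genes, lists and tests were chosen with earlier results of these data known. Named genes were the 4 largest called differences per comparison without overlap of arrays, the brightest gene not called, unc-54, myo-3, unc-15, unc-22, hlh-1 and the light chain, troponin I and troponin T genes, the 3 largest differences each way between doses, ages and preparations, and the 2 largest of each further list. Other members are named to account for their role, chosen after their values were seen. The labels do not say whether replicate numbers pair the arrays. Of 27 correlations of same-numbered deviations, 3 were over 0.1 and 16 were negative. The correlation was 0.432 between array 1 of the HF-HQ controls and array 1 of 2.0 mM HF-HQ, so pairing in some groups is not excluded. Alternatives were no filter, a filter at log2 7 or within the experiments compared, centring, quantile normalization, a variance trend, a replicate block, a fit of the compared groups alone, the mean of a gene's probe sets and leaving out each array.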

Additional observations from a re-analysis of the deposited data

Results flagged for a closer look

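Responses of the muscle genes that differed between ages or between preparations, by an interaction contrast of the limma fit, are given here as log2 differences between the changes (n = 3 arrays per group). Between 11 and 3 days with 0.2 mM HF, 14 of 39 genes differed (35.9%), beside 42.7% of all tested probe sets. The change was lower at 11 days for dim-1 (-1.03), mlc-3 (-0.80) and unc-95 (-0.69), and higher for pat-2 (0.54) and unc-45 (0.36). With 2.0 mM HF, 23 genes differed (59%), beside 62% of all tested probe sets, so neither share of muscle genes was above that of all probe sets. Among the 23 were mlc-3 (-1.48), lev-11 (-1.31) and tni-3 (-1.21) with lower changes at 11 days, and unc-89 (0.74), pat-2 (0.48) and unc-45 (0.38) with higher ones.

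Between HF-HQ and HF at 3 days with 0.2 mM, 22 genes differed (56.4%), beside 40.2% of all tested probe sets. The change with HF-HQ was lower for tnt-2 (-0.91), unc-54 (-0.85) and dim-1 (-0.80), and higher for ttn-1 (0.73), pat-2 (0.58) and tnc-2 (0.56). With 2.0 mM, 25 genes differed (64.1%), beside 48.2% of all tested probe sets. Changes were lower for unc-95 (-1.61), dim-1 (-1.55) and tnt-2 (-1.35) and higher for myo-1 (0.51), tnc-2 (0.51) and unc-45 (0.27).

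The differences of unc-89, ttn-1, pat-2 and myo-1 involve values under log2 5 in the HF arrays, and that of myo-1 only restates its rise with HF-HQ. All HF arrays of unc-95 at 11 days were at or under log2 5, with controls at the low end of the scale. A change of unc-95 at 11 days could therefore be hidden. tnt-2 lay near the top of the scale in the HF-HQ arrays, between 13.25 and 13.43, which limits its change there. Leaving out single arrays ended these calls for unc-89 (0.34, adjusted p = 0.0753, without 11-day control array 1), for ttn-1 (0.52, adjusted p = 0.122, without array 1 of 0.2 mM HF-HQ), for pat-2 in all 3 contrasts (adjusted p of 0.0501 to 0.0774) and for unc-45 between preparations (adjusted p of 0.0516 to 0.103). The experiments differ along with age and with preparation, and their parts cannot be told apart.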

How the results depend on the processing

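Over 311 differences of single genes and 4716 recomputed values, 4433 kept their direction and their side of the threshold, 190 lost the call, 88 gained one and 5 turned. The 5 turned with the mean of a gene's probe sets: unc-60 with 2.0 mM HF at 3 days (0.19) and for age (-0.15), sca-1 with 0.2 mM HF at 3 days (0.10) and with 0.2 mM HF-HQ (-0.18), and unc-89 with 0.2 mM HF-HQ (-0.36), because the probe sets averaged differ.

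The number of muscle genes called moved by over 1.5 times as follows, and the cause was not tested. With 0.2 mM HF at 11 days, where 5 were called, 3 were called when only the compared groups were fitted and 10 with the mean of the probe sets. With 2.0 mM HF at 11 days (10 called), that fit gave 3. With 0.2 mM HF-HQ (12 called) it gave 0 by limma, with 10 at an unadjusted p under 0.05, and between the doses of HF-HQ (14 called) it gave 7. Leaving out single arrays gave 21 to 26 called genes with 0.2 mM and 24 to 25 with 2.0 mM HF at 3 days, 3 to 5 and 6 to 9 at 11 days, 8 to 13 and 9 to 13 with HF-HQ. Between doses it gave 4 to 10 for HF at 3 days, 9 to 13 at 11 days and 11 to 14 for HF-HQ, for age 30 to 31, for age by dose 13 to 16 and 20 to 23, and for preparation by dose 20 to 23 and 23 to 27. With the replicate number as a block, 26 and 25 genes were called with HF at 3 days, 4 and 8 at 11 days, 11 and 13 with HF-HQ and 30 for age, and no count moved by over 1.5 times. Signal near the low end of the scale limits the 8 genes detected in the HF-HQ arrays alone.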

Other observations

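Genes around the muscle cell showed mixed responses. Of 12 basement membrane genes, 9 were tested, and with 2.0 mM HF at 3 days 3 rose and 2 fell, beside 60.9% of all tested probe sets called. The fibulin gene fbl-1 rose by 0.81 ± 0.10 (log2 difference ± SE of the limma fit, n = 3 per group), and the laminin beta gene lam-1 fell by 0.70 ± 0.13. In untreated worms at 11 against 3 days, 6 of the 9 were lower and 2 higher, beside 51.2% and 27.9% of all probe sets. fbl-1 differed by -3.08 ± 0.10, with 11-day values under log2 5, and the 2 higher genes, lam-2 and lam-3, were under log2 5 at 3 days. For lam-3 all untreated 11-day arrays were under log2 5 too. Of 10 genes of the dystrophin complex, the sarcoglycan gene sgca-1 was the gene tested, and it rose with 2.0 mM HF at 3 days by 0.47 ± 0.07 from control values under log2 5. Of 13 receptor and receptor assembly genes of the neuromuscular junction, 3 were tested, and unc-50, needed for transport of acetylcholine receptors to the surface, fell with 2.0 mM HF at 3 days by 0.64 ± 0.17 to values under log2 5.

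Of 10 regulators of muscle fate and activity, 8 were tested. With 0.2 mM HF at 3 days, 2 rose, beside 58.9% of all probe sets called, among them the CaM kinase II gene unc-43 (0.65 ± 0.14). With 0.2 mM HF-HQ, 1 rose and 3 fell, beside 30.2% called, among them the homeobox gene unc-62 (-1.24 ± 0.21) and unc-43 (-0.53 ± 0.14). In untreated worms at 11 days, 5 were lower, beside 51.2% of all probe sets, with the potassium channel gene twk-18 at -2.46 ± 0.10. For 3 of the 5, the muscle fate genes unc-120 and hnd-1 and the splicing factor gene sup-12, all HF arrays were under log2 5, and they were tested only through the HF-HQ arrays.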
